A study of Aspergillus niger with 11 samples.

Results

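Levels of 3 transcripts of Aspergillus niger were followed through a fed-batch fermentation in which oxygen became limiting. They were chosen by locus, with earlier results of these data known. The first is aox1 (An11g04810), the gene of the alternative oxidase. The others are pdcA (An02g06820), the gene of a pyruvate decarboxylase, and oahA (An10g00820), the gene of oxaloacetate hydrolase. All 3 were found among the 10445 genes of the deposited values. A RefSeq gene table of assembly ASM285v2 holds the symbol aox1 for An11g04810 and no symbol for An02g06820 and An10g00820, for which the names pdcA and oahA in general use are kept.

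The 3 enzymes stand where carbon and electrons can leave the usual route of respiration. Alternative oxidase passes electrons from ubiquinol straight to oxygen in the inner mitochondrial membrane, so that the proton-pumping cytochrome steps are bypassed, and A. niger is known to use it during citric acid formation. Pyruvate decarboxylase splits pyruvate into carbon dioxide and acetaldehyde, the first step towards ethanol or acetate. Oxaloacetate hydrolase splits oxaloacetate into oxalate and acetate, and oxalate is a main by-product acid of A. niger whose formation is known to depend on the pH around the fungus.

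RNA came from strain DS03043, grown in a fermenter of 5 L at 34 °C and pH 4.5 stirred at 375 rpm, aerated at 1 vvm and held at an overpressure of 0.05 MPa. The libraries belong to the exponential phase (18 h, n = 3), the transitional phase or early stage of oxygen limitation (24 h, n = 3), the middle limited phase (42 h, n = 3) and the late limited phase (66 h, n = 2). The labels give the 4 times for the series and the phases for the libraries, so times were matched to phases in chronological order. All later libraries come from limited cultures, so oxygen limitation and culture age cannot be told apart. Whether replicates were separate cultures is not stated, and p-values here measure a spread between samples that may be technical.

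Values are FPKM, fragments per kilobase of transcript scaled to the mapped total. The libraries listed 5399 to 5959 genes above 0, and their FPKM summed to 968822 to 1100826. For each gene a step, the FPKM worth of 1 read, was sought that made all its values whole numbers of reads, within 0.1. Many sizes of step were tried, so for genes above 0 in few libraries one fits readily, and the share found is no test. A step was found for 8337 of 8697 genes above 0 in at least 2 libraries (95.9%). Over these genes a library held 30192 to 41812 reads, so the depth behind single genes was small. The deepest library, of 66 h, was 1.59 times as deep as the shallowest, of 24 h. Relative to the shallowest, depth was 1.38 to 1.59 in the 42 and 66 h libraries and 1.0 to 1.21 in those of 18 and 24 h. Their FPKM sums were 968822 to 983397 and 1054732 to 1100826. Depth and FPKM sum thus cannot be told apart from later against earlier phase. For aox1, pdcA and oahA the reads behind each value could be given and are set beside the FPKM. The intervals that follow from them cover counting error alone.

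In outline, oahA was lowest in the middle limited phase, where its mean was 4.44 times below that of the exponential phase, a fall that was called but lost in some fits given below. The aox1 transcript was well represented at all 4 times and no change of it was detected. The pdcA transcript was scarce throughout, with 0 to 4 reads in a library, and its mean at 42 h was 4.06 times below that at 18 h, a difference that was not called. Levels in broth samples are averages over all hyphae, so fewer cells with a transcript and less transcript per cell cannot be told apart.

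The alternative oxidase transcript stood at 349.8, 535 and 439 FPKM in the 18 h libraries, which rested on 26, 37 and 29 reads. In the 24 h libraries it was at 381, 271 and 261 FPKM, from 26, 17 and 16 reads. Replicates 2 and 3 lie below every 18 h value and replicate 1 lies among them, so the phases overlap. The 42 h libraries held 566, 445 and 283 FPKM, from 48, 39 and 24 reads, and the 66 h libraries 431 and 477 FPKM, from 42 and 44 reads. The middle limited phase thus has the widest spread, with the highest value of aox1 in the study and one within the 24 h range.

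Mean aox1 levels were 441 ± 92.6 FPKM (SD, n = 3) in the exponential phase and 304 ± 66.7 (n = 3) in the early limited phase. They were 431 ± 142 FPKM (n = 3) in the middle and 454 ± 32.3 (n = 2) in the late limited phase. In descending order the phases were late limited, exponential, middle limited and early limited, and no neighbours in that order were called different. Reads pooled per phase gave 439 FPKM at 18 h (95% exact Poisson interval 354 to 538) and 307 at 24 h (234 to 396). For 42 h they gave 431 (355 to 519) and for 66 h 453 (362 to 559), intervals that overlap one another at all 4 times. In each library aox1 lay above 93.9% to 97.1% of all genes.

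Differences were tested by limma on log2(FPKM + 1) over 8693 genes with Benjamini-Hochberg adjustment, with calls made below an adjusted p of 0.05. The log2 fold change of aox1 from 18 to 24 h was -0.53 (SE 0.29, 95% interval -1.17 to 0.10), with a limma adjusted p of 0.51. In this comparison 1.5% of all genes tested were called, and 4.8% of those with a mean FPKM of 100 to 1000, the class of aox1 and oahA. From 24 to 42 h the log2 fold change was 0.47 (interval -0.17 to 1.10, limma adjusted p = 0.46), and from 24 to 66 h it was 0.59 (interval -0.11 to 1.30, limma adjusted p = 0.387). Both 66 h libraries lay above all 24 h libraries, as did those of 13.4% of all genes, and 5.53% of genes were called in that comparison. Against the exponential phase, the log2 fold change was -0.07 at 42 h (interval -0.70 to 0.56) and 0.06 at 66 h (interval -0.65 to 0.77). Neither was called, and intervals of this width do not show that aox1 stayed level. An exact permutation test over all 92400 assignments of the 11 libraries to the phases gave p = 0.278 for any difference of aox1 between the times.

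**Figure D1:**
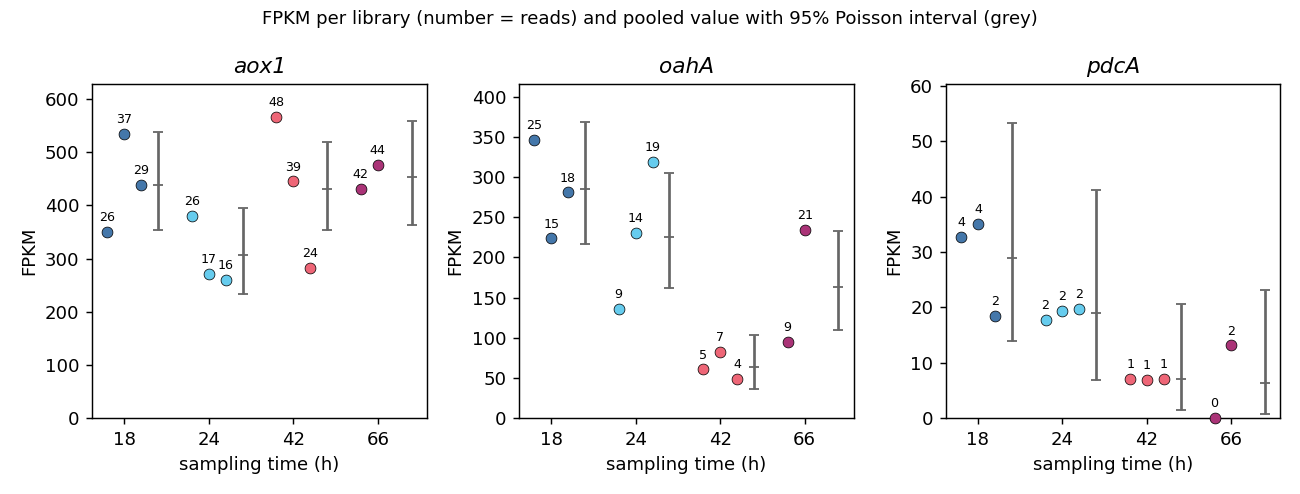
FPKM of aox1, oahA and pdcA (vertical axes, linear, each from 0) in every library at the 4 sampling times, with the number of recovered reads above each point, and in grey the pooled FPKM of each time with its 95% exact Poisson interval. The 3 values of oahA at 42 h, 48.5 to 82.4 FPKM, lie below all its others, aox1 overlaps between most times, and pdcA rests on 0 to 4 reads in a library.

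The pyruvate decarboxylase transcript was listed at 32.7, 35.05 and 18.4 FPKM in the exponential libraries. In the early limited libraries it was listed at 17.8, 19.4 and 19.8 FPKM. These values correspond to 4, 4 and 2 reads and to 2 reads in each library. In the 42 h libraries pdcA was at 7.15, 6.92 and 7.14 FPKM, which is 1 read each, and at 66 h it was listed at 0 in replicate 1 and at 13.15 FPKM, or 2 reads, in replicate 2. In FPKM all 5 libraries of 42 and 66 h therefore lie below all 6 libraries of 18 and 24 h. The depth is such that 1 read is worth 6.23 to 9.90 FPKM. In reads they are not all apart, as 66 h replicate 2 had 2, like 18 h replicate 3 and each 24 h library. Its FPKM is below theirs because that library was deeper (relative depth 1.51 against 1.0 to 1.11). The close agreement within phases, 19.0 ± 1.05 FPKM at 24 h and 7.07 ± 0.13 at 42 h (SD, n = 3 each), comes from equal small read numbers and is narrower than counting error, which is 70.7% and 100% of the mean per library.

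Pooled over libraries, pdcA had 10, 6, 3 and 2 reads in the 4 phases in order of time. These gave 29.0 FPKM (95% exact Poisson interval 13.9 to 53.3), 19.0 (6.96 to 41.3), 7.07 (1.46 to 20.7) and 6.40 (0.775 to 23.1). The intervals of successive phases overlap. A count of 0 in 66 h replicate 1 allows up to 3 reads, or 18.7 FPKM, which is within the range of the 24 h libraries.

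For pdcA the log2 fold change from 18 to 42 h was -1.83 (SE 1.00, 95% interval -4.03 to 0.38), with a limma adjusted p of 0.369. Among genes with a mean FPKM of 10 to 30, where pdcA falls, the 42 h libraries all lay below the 18 h libraries for 10.9% of genes. From 18 to 66 h the log2 fold change was -2.93 (interval -5.39 to -0.46, limma adjusted p = 0.179, unadjusted p = 0.0241), a value that depends on the pseudocount because of the listed 0 and was -1.02 without 66 h replicate 1. In this comparison 6.04% of all genes were called, and for 15.5% of genes in the class the 66 h libraries all lay below those of 18 h. Against 24 h the pdcA libraries did not overlap either. The 42 h libraries were lower as for 10.3% of the class and those of 66 h as for 16.1% of it. Yet 66 h replicate 2 had 2 reads, as many as each 24 h library. The order of the phase levels was 18, 24, 42 and 66 h, and no pair of neighbours was called. The exact permutation test gave p = 0.029 for any difference of pdcA between the times, and the limma F test gave an adjusted p of 0.32. The exact permutation p was between 0.0597 and 0.122 without any 1 of 18 h replicates 1 and 2, the 24 h libraries and the 42 h libraries.

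The oxaloacetate hydrolase transcript was at 347, 224 and 281 FPKM in the exponential phase, from 25, 15 and 18 reads. In the early limited phase it was at 136, 230.1 and 319 FPKM, from 9, 14 and 19 reads, a range that overlaps that of the exponential phase. In the middle limited phase it was at 60.8, 82.4 and 48.5 FPKM, from 5, 7 and 4 reads. All 3 middle limited libraries were thus below all 6 earlier ones. In the late limited phase, replicate 1 was at 95.1 FPKM (9 reads) and replicate 2 at 234 FPKM (21 reads), one just above the middle limited range and one within the range of the early phases.

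Mean oahA levels were 284 ± 61.6 FPKM (SD, n = 3) in the exponential phase and 228 ± 91.6 (n = 3) in the early limited phase. They were 63.9 ± 17.1 FPKM (n = 3) in the middle and 165 ± 98.5 (n = 2) in the late limited phase. Pooled reads gave 285 FPKM at 18 h (95% exact Poisson interval 217 to 369) and 225 at 24 h (162 to 304). For 42 h they gave 64.0 (36.6 to 104) and for 66 h 163 (109.9 to 233). The 42 h interval ends below where those of the 3 other times begin. Its place among all genes moved as well, from above 93.1% to 95.1% of genes in the 18 h libraries to above 79.7% to 85.5% of genes in the 42 h libraries.

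From the exponential to the middle limited phase oahA fell, with a log2 fold change of -2.14 (SE 0.43, 95% interval -3.10 to -1.19, limma adjusted p = 0.0144). In this comparison 6% of all genes tested were called, 3.01% downwards, and 20.6% of the 1166 genes with a mean FPKM of 100 to 1000. The 42 h libraries all lay below those of 18 h for 12% of all genes. Of those 1166 genes, 55 (4.72%) had a log2 fold change as low as that of oahA or lower, while their median was -0.09. The call was lost without 18 h replicate 1 (limma adjusted p = 0.0591), without 42 h replicate 3 (0.0572) and when no variance trend was fitted (0.079), with log2 fold changes of -1.99, -1.97 and -2.14.

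From the early to the middle limited phase oahA fell by 1.77 on the log2 scale (SE 0.43, 95% interval -2.72 to -0.82, limma adjusted p = 0.044). In this comparison 4.66% of all genes tested were called, 2.8% downwards, and 17.5% of the abundance class of oahA, and the groups did not overlap, with 42 h lower, for 11.4%. It shares the 42 h libraries with the comparison to 18 h and is no separate evidence. This call was lost in 8 of 11 leave-one-out fits, all but those without 24 h replicate 1 and either 66 h library (limma adjusted p 0.057 to 0.138, log2 fold changes -1.97 to -1.49). It was also lost in 8 of 11 other settings, with adjusted p up to 0.18. From 18 to 24 h the log2 fold change was -0.37 (interval -1.32 to 0.58, limma adjusted p = 0.755).

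At 66 h both values of oahA lay above the 3 values at 42 h, with a mean 2.58 times as high. The log2 fold change was 1.25 (SE 0.48, 95% interval 0.18 to 2.31), and it was not called (limma adjusted p = 0.702, unadjusted p = 0.0258). Of all genes tested, 0.426% were called between these times, and 7.68% had 66 h libraries that were all above those of 42 h. Without 66 h replicate 2 the log2 fold change was 0.60 and without replicate 1 it was 1.89. Against 18 h, the late limited phase differed by -0.90 in log2 (interval -1.96 to 0.17, limma adjusted p = 0.383). In descending order the levels of oahA were those of 18, 24, 66 and 42 h, and no neighbours in this order were called different. Over the 4 times together, oahA was called by the limma F test (adjusted p = 0.0342), which called 8.03% of all genes and 28.6% of its abundance class, and the exact permutation test gave p = 0.014. The F call was lost without any 1 of the 18 h libraries, 24 h replicate 2 or the 42 h libraries (adjusted p 0.0553 to 0.127), when no filter on low values was used (0.0622) and when no variance trend was fitted (0.16). The exact permutation p was between 0.00714 and 0.046 in the leave-one-out tests.

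**Figure D2:**
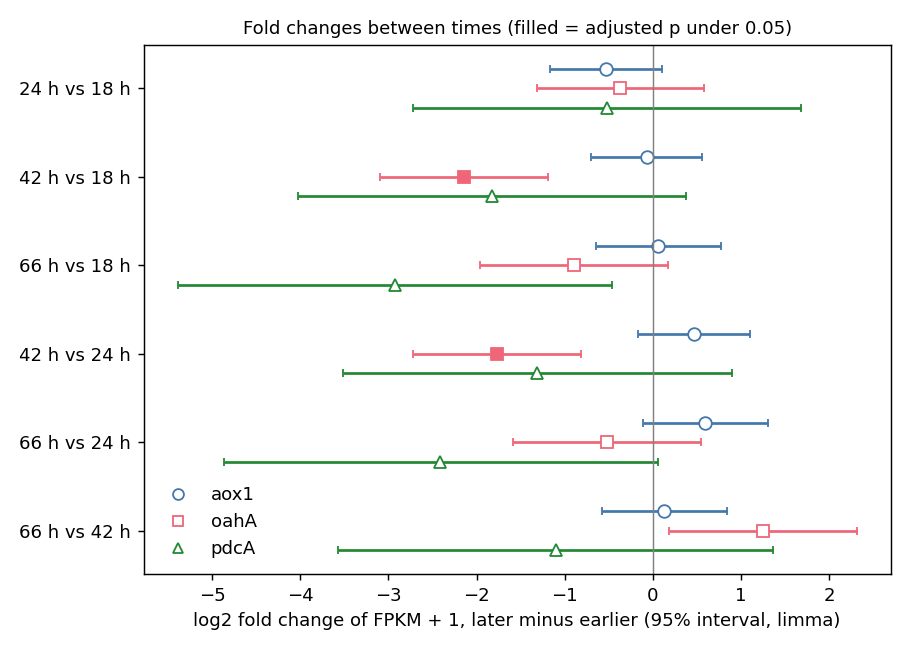
Log2 fold changes of FPKM + 1 (horizontal axis, later minus earlier time) for aox1, oahA and pdcA in the 6 comparisons of times, with 95% intervals from limma and filled symbols where the adjusted p was under 0.05. The filled symbols are those of oahA at 42 h against 18 h (-2.14) and against 24 h (-1.77), and the pdcA intervals are the widest.

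FPKM is scaled to transcript length, so levels of the genes can be set against each other within a library. The aox1 transcript was 1.01, 2.39 and 1.56 times as high as oahA in the 18 h libraries and 2.80, 1.18 and 0.817 times as high in the 24 h libraries. In the 42 h libraries the ratio was 9.31, 5.41 and 5.82, and in the 66 h libraries 4.53 and 2.03. At 18 and 24 h the ratio thus ranged from 0.817 to 2.80, and every 42 h library had a higher ratio than any other library. The ratio holds the same oahA values as the fall of oahA and is no separate evidence of it. How many other pairs of genes part in this way was not computed. The exact permutation test of the log2 ratio gave p = 0.0266 for any difference between the times. The exact permutation p was 0.0538 to 0.089 without any 1 of 18 h replicate 3, 24 h replicate 2 and the 42 h libraries. Each of aox1 and oahA was also set against pdcA, with exact permutation p of 0.0368 and 0.0175. Both ratios rest on the few pdcA reads. For aox1 the exact permutation p was 0.05 to 0.0821 without any 1 of the 9 libraries of 18, 24 and 42 h. For oahA the exact permutation p was 0.0527 to 0.0635 without 24 h replicate 2, 42 h replicates 1 or 3 or 66 h replicate 2, and 0.381 without 66 h replicate 1, where pdcA was listed at 0. These were 6 exact tests in all, and their p-values are not adjusted.

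**Figure D3:**
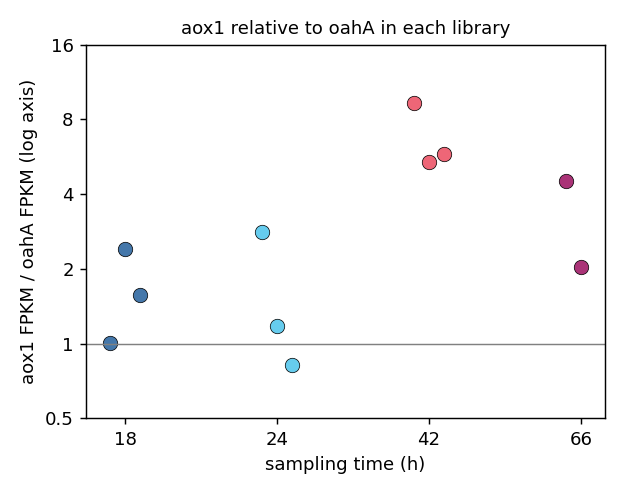
Ratio of aox1 FPKM to oahA FPKM in each library (vertical axis, logarithmic) at the 4 sampling times, with a line at equal levels. The 42 h libraries lie at 5.41 to 9.31, above all 8 other libraries, which lie at 0.817 to 4.53.

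Neighbouring genes were taken from the order of the RefSeq table, 2 on each side of a member. Next to oahA, An10g00810 was at 219, 90.7 and 227 FPKM at 18 h and at 128, 99.8 and 102 at 24 h. It was at 59.1, 28.6 and 44.3 FPKM at 42 h and at 77.1 and 81.4 at 66 h. All its 42 h values were below those of the other times, and 42 h libraries lay entirely below those of 18 h for 12% of all genes and below those of 24 h for 11.4%. From 18 to 42 h An10g00810 fell by 1.95 on the log2 scale (SE 0.44, limma adjusted p = 0.0267). The call was lost without 18 h replicates 1 or 3 or 42 h replicates 2 or 3 (limma adjusted p 0.0628 to 0.0931), when no variance trend was fitted (0.0896) and with the libraries of these groups alone (0.064). The 3 other neighbours of oahA were called in none of the 6 comparisons. On the other side of oahA, An10g00830 had a mean of 109 ± 5.98 FPKM in the exponential and 128 ± 32.4 in the middle limited phase, and An10g00840 of 792 ± 29.2 and 1022 ± 154 (SD, n = 3 each).

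**Figure D4:**
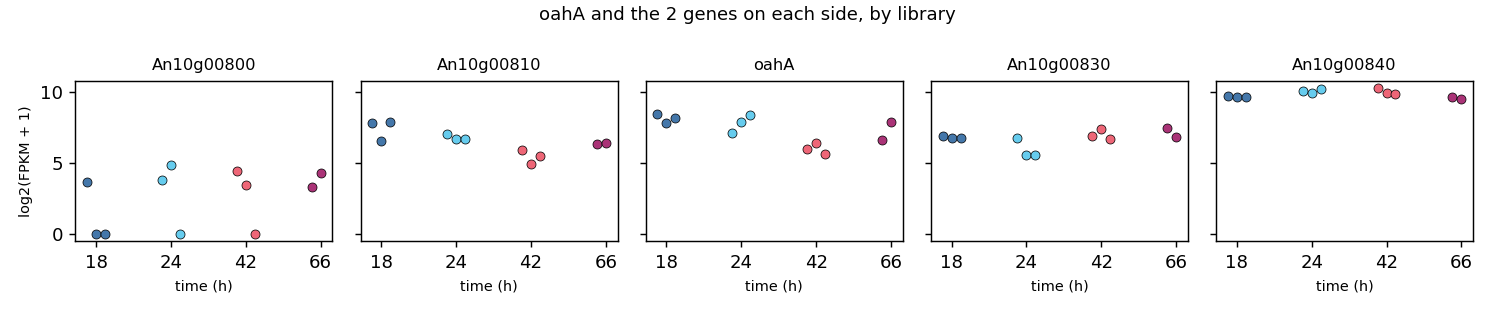
Log2(FPKM + 1) in every library at the 4 sampling times for oahA and for the 2 genes on each side of it in the order of the RefSeq table. An10g00810 and oahA have their lowest values at 42 h, and An10g00830 and An10g00840 do not.

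Near aox1, An11g04790 stood at 1391, 1507 and 919.9 FPKM in the exponential and at 697, 42.1 and 173 FPKM in the early limited libraries. It stood at 722, 1189 and 813 FPKM in the middle and at 1928 and 1434 FPKM in the late limited libraries. Its 24 h libraries were all below those of every other time, whereas those of aox1 overlapped with 18 and 42 h. Of all genes, 5.29% had 24 h libraries entirely below those of 18 h and 13.4% entirely below those of 66 h. The share for 42 h is not given here. An11g04790 rose from 24 to 66 h by 3.26 on the log2 scale (SE 0.83, limma adjusted p = 0.0474). That call was lost in 10 of 11 leave-one-out fits, all but the one without 24 h replicate 1 (limma adjusted p up to 0.24), and in 5 of 10 other settings (up to 0.219). The log2 fold change was 2.26 without 24 h replicate 2 and 4.27 without 24 h replicate 1. From 18 to 24 h it was not called (limma adjusted p = 0.118). An11g04820 and An11g04830, on the other side of aox1, had 4 and 10 reads over the 11 libraries. An11g04800 was not among the genes of the deposited values. Of the neighbours of pdcA, An02g06830 was the one with the most reads (108), with means of 7.11 ± 4.69 FPKM in the exponential and 31.0 ± 2.20 in the middle limited phase (SD, n = 3 each, limma adjusted p = 0.128), and none of the 4 was called.

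Genes of like course were sought among those with a mean FPKM of at least 30, by the root mean square difference of centred log2(FPKM + 1) values over the 11 libraries. The nearest to oahA among 2932 genes were An14g03610, An04g05360, An03g04280, An16g03720 and An04g04220, with differences of 0.36, 0.42, 0.43, 0.47 and 0.50 log2 units, against a median of 1.33 over all. The most abundant of these was An04g04220, with means of 3949.8 ± 239 and 2458 ± 238 FPKM in the exponential and early limited phases and 934 ± 182 (SD, n = 3 each) and 1186 ± 8.40 (n = 2) in the middle and late limited phases. For aox1 they were An12g06760, An09g03060, An14g06130, An02g06180 and An08g06100, at 0.24 to 0.29 log2 units against a median of 0.97. An12g06760 had nearly the level of aox1 too, with 490.3 ± 134, 284 ± 98.2, 486 ± 74.9 and 489 ± 45.4 FPKM at the 4 times in order. For pdcA the nearest were An12g10480, An04g04710, An02g11680, An05g00410 and An02g07050, at 0.50 to 0.69 log2 units against a median of 1.67. An12g10480 had means of 141 ± 35.2 and 101 ± 28.5 FPKM in the first phases and of 26.8 ± 7.38 and 15.3 ± 14.8 FPKM in the middle and late limited phases. None of these 15 genes carries a symbol in the table, and as they were chosen for their course, no test of it is given.

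The genes around these branch points that carry a symbol were described as 3 lists. Of the respiratory chain, these were nuo51, a subunit of complex I, cyc, cytochrome c, and cox5, a subunit of cytochrome c oxidase. The cytochrome route that alternative oxidase bypasses holds cyc and cox5. Of the fates of pyruvate, the genes were pyc, pyruvate carboxylase, which makes oxaloacetate, citA, citrate synthase, and aldA, aldehyde dehydrogenase. With them were adhA, alcohol dehydrogenase, and facB, known in Aspergillus nidulans as the activator of acetate use. Of gluconate formation, catR, a catalase, was among the genes of the deposited values and goxC, glucose oxidase, was not. In limma 0 of these 9 genes were called in any of the 6 comparisons or in the F test, and voom weights on the recovered reads called 0 as well. Over all genes the share called ran from 0.426% to 6.04% in the 6 comparisons and was 8.03% in the F test, so a count of 0 among 9 genes does not set them apart. An unadjusted p under 0.05 was found for 1 gene from 18 to 42 h (facB), 2 from 18 to 66 h (cyc and pyc) and 1 from 24 to 66 h (pyc). The same threshold was passed by 18.1%, 18.7% and 18.3% of all genes in these comparisons. From 18 to 42 h the median log2 fold change of the 9 was 0.21, against -0.01 over all genes tested, and from 18 to 66 h it was 0.28 against 0.00.

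In the list of the fates of pyruvate, pyc had a mean of 49.5 ± 9.63 FPKM in the exponential phase (SD, n = 3). It had a mean of 28.8 ± 13.3 FPKM in the middle limited phase (n = 3) and 37.3 to 68.6 in the early limited libraries. Its late limited values, 23.5 and 12.4 FPKM, lay below all those of 18 and 24 h, as was found for 15.9% and 15.7% of all genes. The log2 fold change from 18 to 66 h was -1.46 (SE 0.65, limma adjusted p = 0.256). The citA transcript had means of 66.0 ± 20.3 FPKM in the exponential and 94.3 ± 60.9 in the middle limited phase, where 1 library stood at 164 FPKM. The adhA transcript was at 48.2 ± 10.9, 31.5 ± 16.6, 58.6 ± 20.9 and 58.0 ± 5.25 FPKM at the 4 times in order. The facB transcript had means of 87.5 ± 33.6 FPKM in the exponential and 43.1 ± 5.01 in the middle limited phase, a log2 fold change of -0.95 (SE 0.42, limma adjusted p = 0.268), and aldA was at 0 to 49.3 FPKM with 32 reads in all.

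The respiratory chain genes were measured with few reads, 20 for nuo51, 17 for cyc and 12 for cox5 over the 11 libraries. At 18 h cyc was listed at 0 in 2 libraries and at 50.2 FPKM in replicate 2, and at 66 h it was at 211 and 74.2 FPKM (limma adjusted p = 0.221, with no fold given because of the listed 0). In every library the FPKM of aox1 was above that of cyc and cox5, with 431 against 211 for cyc in 66 h replicate 1. The cox5 transcript did not exceed 133 FPKM in any library. No counting interval was computed for this ranking, which covers cyc and cox5 alone and not the whole cytochrome route. Fold changes of the cytochrome route could not be resolved at this depth, so the course of aox1 relative to it was not tested.

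**Figure D5:**
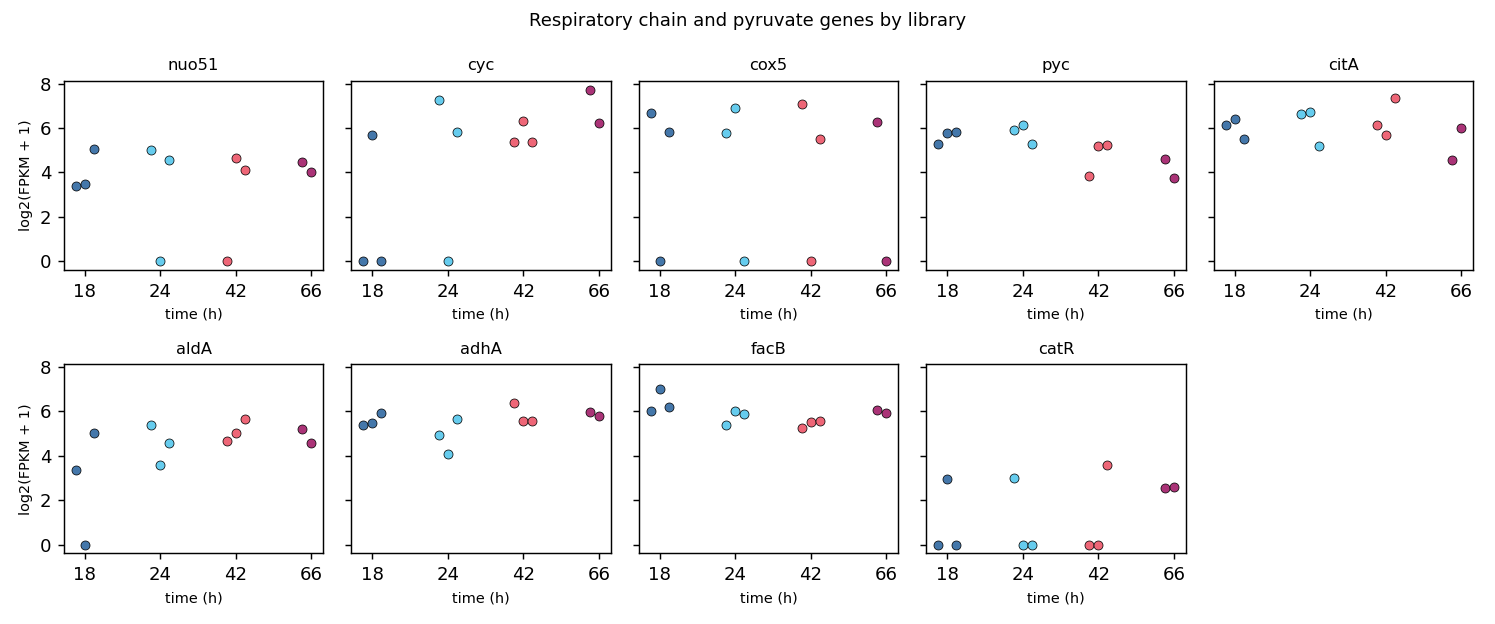
Log2(FPKM + 1) in every library at the 4 sampling times for the 9 genes with a symbol in the respiratory chain (nuo51, cyc, cox5), the fates of pyruvate (pyc, citA, aldA, adhA, facB) and gluconate formation (catR). Points at 0 are libraries in which a gene was listed at 0, and none of the 9 genes was called between any times.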

How the data were processed

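The authors deposited FPKM values, 1 per gene and library, per the file headers. RSEM made them, per the submitters' processing notes. No source used here gives the aligner, genome build, annotation or any version, so no coordinates are printed. Because FPKM is relative to the mapped total, abundant transcripts can shift all other values.

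Reads were recovered as the largest step per gene that made every value a whole number of reads within 0.1 after estimation of relative depths (Python 3.11.15, numpy 2.4.6, scipy 1.17.1, pandas 2.3.3, matplotlib 3.10.9), tested on simulated data. These are the smallest whole numbers that match, so true read numbers could be a multiple of them. The simulated reads were drawn with the recovered steps, so they cannot show whether this is so. Reads were not used in the main test. Genes that reached 1 FPKM in 2 or more libraries entered limma 3.58.1 (R 4.3.3) on log2(FPKM + 1), with a mean per phase, all 11 libraries and a variance trend. Fold changes on this scale understate those of low genes, but a listed 0 can widen them. For pdcA the log2 fold change from 42 to 66 h was -1.10, with means of 7.07 and 6.575 FPKM. The fit was also run on simulated data, with changes placed only in genes of more reads than pdcA. Whether it finds changes in genes as scarce as pdcA was thus not tested. The exact permutation statistic was the between-group sum of squares, a test without direction.

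Of the gene identifiers, 10417 matched the RefSeq table and 28 did not. The members and lists were chosen with earlier results of these data known. Of 14 loci listed as pathway genes, 10 carried no symbol and are not described, and 6 genes were added by their symbol. Named genes are the members, their 2 neighbours on each side, the listed genes and the 5 genes of nearest course, from which no sequence relatives were sought because no protein table was used here.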

Additional observations from a re-analysis of the deposited data

How the results depend on the processing

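The fits were repeated in 22 other settings, among them voom weights on recovered reads, which were chosen after seeing the data. The fall of oahA from 18 to 42 h kept its direction in all of them. Its call was lost without a trend (log2 fold change -2.14), and leaving out each library gave -2.34 to -1.97. From 24 to 42 h the oahA call was lost at pseudocount 0.1 (-1.79), with no filter, no trend, the replicate block or only the groups compared (-1.77 each), with equal FPKM sums (-1.62), median-of-ratios scaling (-1.64) and quantile normalization (-1.69), and leave-one-out values were -2.10 to -1.49. The adjusted p of the oahA F test was 0.0622 without a filter, 0.16 without a trend, 0.0682 with the replicate block and 0.0225 to 0.127 in leave-one-out fits. Some differences turned their sign, none of them called. For aox1 these were 42 against 18 h with equal FPKM sums (0.06; leave-one-out -0.29 to 0.21), 66 against 18 h with the replicate block (-0.06; leave-one-out -0.10 to 0.21) and 66 against 42 h (leave-one-out -0.15 to 0.35). Leave-one-out values were -1.17 to 0.12 for oahA from 24 to 66 h and -3.01 to 0.81 for pdcA from 42 to 66 h, where all libraries gave -1.10. The exact permutation p of pdcA was 0.0547 with a pseudocount of 0.1, 0.0647 after quantile normalization and 0.00107 to 0.122 in leave-one-out tests. For the ratio of aox1 to oahA leave-one-out p was 0.00841 to 0.089. For aox1 to pdcA p was 0.0505 after quantile normalization and 0.00357 to 0.0821 in leave-one-out tests, and for oahA to pdcA it was 0.0631 with a pseudocount of 10 and 0.0225 to 0.381. The cause of these changes was not tested, other than that leave-one-out fits hold fewer samples. Scaling moved the median gene by up to 0.15 in log2 from 24 to 42 h and 0.18 from 24 to 66 h.

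Same-numbered libraries of different times showed no shared deviations (correlation of deviations across genes -0.071 to 0.054 over 15 pairs). Pairs of unlike number gave -0.059 to 0.059 over 30 pairs. With few reads behind many genes this check could miss a pairing, so whether the numbers pair the samples is not settled. With the replicate block the genes called from 18 to 24 h numbered 71 against 130, from 24 to 66 h 301 against 481, from 42 to 66 h 4 against 37, and in the F test 462 against 698. Without a trend they were 57 from 18 to 24 h, 249 against 522 from 18 to 42 h, 251 against 525 from 18 to 66 h, 132 against 405 from 24 to 42 h, 155 from 24 to 66 h, 67 from 42 to 66 h and 300 in the F test. With voom weights they were 831 from 18 to 66 h, 724 from 24 to 66 h, 12 from 42 to 66 h and 1169 in the F test. With only the groups compared they were 40 from 18 to 24 h and 0 from 42 to 66 h. For 42 to 66 h they were 61 and 16 with pseudocounts of 0.1 and 10, and 66 and 16 without a filter and with one at an FPKM of 10. Leave-one-out counts were 220 to 570 from 18 to 66 h, 236 to 441 from 24 to 42 h, 180 to 543 from 24 to 66 h and 17 to 95 from 42 to 66 h. The lowest came without 66 h replicate 1 (from 18 and from 24 to 66 h), 24 h replicate 2 (from 24 to 42 h) and 66 h replicate 2 (from 42 to 66 h), and the highest of the last without 42 h replicate 2. With only the groups compared the F test has no value. A fit that leaves 1 library at 66 h takes it to vary like the others.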
